A study of Mus musculus with 12 samples.

Results

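The serine/arginine-rich (SR) splicing factor family was examined as a set of 10 genes, *Srsf1*, *Srsf2*, *Srsf3*, *Srsf4*, *Srsf5*, *Srsf6*, *Srsf7*, *Srsf9*, *Srsf10*, and *Srsf11*, to ask how its members behave when *Srsf3* is lowered. They were taken by gene symbol from 51490 genes, and all 10 passed a filter for low counts together with 15037 genes in total. RNA-seq had been performed on iMEPM cells, an immortalized line of mouse embryonic palatal mesenchyme, the tissue of the embryonic palatal shelves. The line came from a male embryo that lacked *Cdkn2a*, a cell cycle inhibitor, so that all 4 groups carry this deletion. Cells were transduced with lentivirus for a scramble shRNA (scramble) or an shRNA against the 3’ untranslated region of *Srsf3* (shSrsf3), selected with puromycin, and sorted for GFP. Each shRNA is represented by 1 stable line, so that other differences between the lines cannot be told apart from the knockdown. The ligand PDGF-AA, a growth factor that activates PDGFRα, was given to serum-starved cultures at 10 ng/mL for 1 hr (+PDGF-AA) or withheld (-PDGF-AA). Each of the 4 groups, scramble -PDGF-AA, shSrsf3 -PDGF-AA, scramble +PDGF-AA, and shSrsf3 +PDGF-AA, had 3 biological replicates. Poly(A) RNA of whole cultures was measured, in which fewer cells with a transcript and less of it per cell cannot be told apart.

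SR proteins bind exonic splicing enhancers with RNA recognition motifs and recruit the spliceosome with a serine/arginine-rich tail. Kinases of the SRPK and CLK families phosphorylate this tail and thereby control where the proteins reside in the cell, and growth factor signaling through Akt reaches both the kinases and some SR proteins. SR genes also restrain their own and each other’s output: many contain a poison exon, a cassette whose inclusion introduces an early stop codon and directs the transcript to nonsense-mediated decay (NMD). Srsf3, which promotes inclusion of its own poison exon, is known to affect the processing of other SR transcripts by the same route.

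The annotation of these genes carries many such transcripts. GENCODE M39 lists 397 transcripts for the 10 members, of which 226 are classed as NMD targets and 130 as protein coding. The NMD class took between 25% of the transcripts of *Srsf1* and 82.9% of those of *Srsf9*, and it held 21 of 49 transcripts of *Srsf3*, 27 of 34 of *Srsf4*, and 35 of 54 of *Srsf7*. For 7 of the 10 members, an NMD transcript holds a cassette exon that is spliced directly between exons of the canonical transcript and contains the annotated stop. The start of such a cassette, through its stop codon, is printed for *Srsf3*, the targeted gene. It is also printed for *Srsf4*, *Srsf6*, and *Srsf7*, the members with higher counts in unstimulated shSrsf3 cells over all 12 libraries described below. The cassettes of *Srsf5*, *Srsf9*, and *Srsf11* are not printed. These members went the other way in the same comparison, with log2 fold changes of -0.15, -0.13, and -0.12, of which that of *Srsf9* alone passed the test. A cassette was thus not particular to members that were higher. Sequences are from GRCm39, 5′ to 3′ on the strand of the gene, and capitals mark the stop codon.
Srsf3: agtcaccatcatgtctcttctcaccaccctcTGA
Srsf7: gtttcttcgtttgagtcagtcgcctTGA
Srsf4: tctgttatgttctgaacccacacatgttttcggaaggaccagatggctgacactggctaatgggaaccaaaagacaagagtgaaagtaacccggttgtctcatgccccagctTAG
Srsf6: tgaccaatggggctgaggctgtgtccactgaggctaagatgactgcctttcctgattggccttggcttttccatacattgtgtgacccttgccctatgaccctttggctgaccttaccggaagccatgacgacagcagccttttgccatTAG

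The *Srsf3* stretch covers chr17:29258428-29258461 on the plus strand, within a cassette of 456 bases that 8 NMD transcripts include between canonical exons, and its stop lies 34 bases into the exon. The *Srsf7* stretch covers chr17:80512483-80512510 on the minus strand, within a cassette of 460 bases that also occurs in 8 NMD transcripts, and its stop lies 28 bases into the exon. The *Srsf4* stretch (chr4:131611587-131611701, plus strand, exon of 207 bases) and the *Srsf6* stretch (chr2:162774735-162774886, plus strand, exon of 268 bases) were each joined to canonical exons on both sides in 1 annotated NMD transcript, with stops 115 and 152 bases into the exon. Other cassettes of both genes also occurred in 1 such transcript each, and the one that starts first along the chromosome is printed. The deposited counts are sums over all transcripts of a gene, so that the values below do not separate coding transcripts from those with a poison exon. These counts were made against GENCODE M26, and whether it holds the transcripts listed from M39 was not checked.

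**Figure D1:**
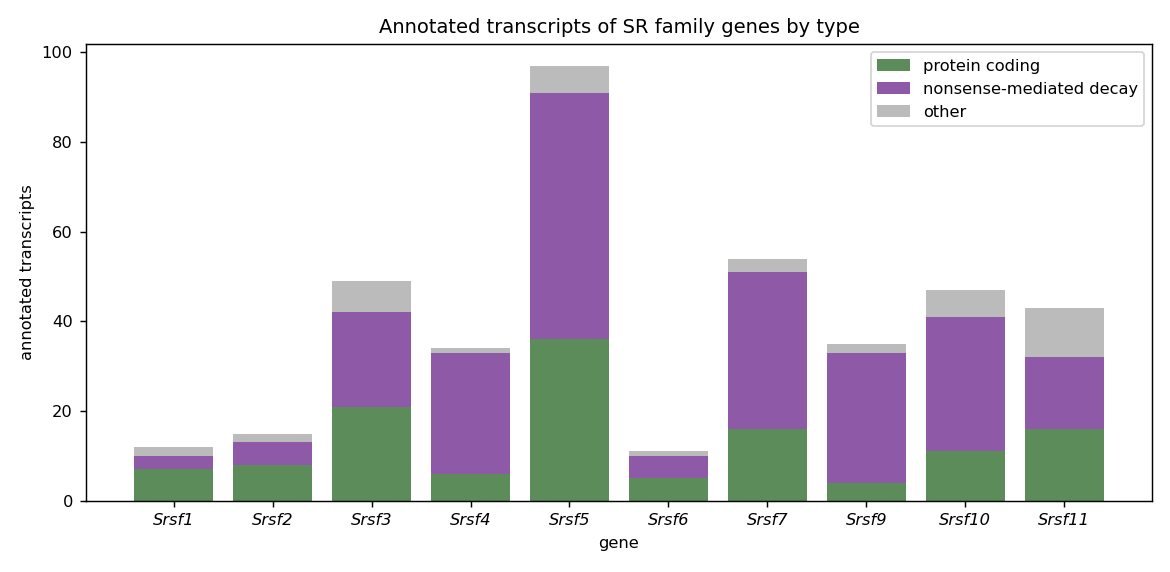
Number of annotated transcripts (vertical axis) of each SR family gene (horizontal axis) in GENCODE M39, stacked by type. The NMD class forms the larger part of the bars of *Srsf4*, *Srsf5*, *Srsf7*, *Srsf9*, and *Srsf10*, and 226 of all 397 transcripts.

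Total counts per library ranged from 30958966 to 76123359, and the members had between 1372 counts (*Srsf4*) and 33329 counts (*Srsf5*) in a library. Of the 9 palatal mesenchyme markers checked, at least 8 were above 1 CPM (the count relative to the normalized library size) in all samples of each group, with *Col1a1* between 16200 and 18400 CPM and *Osr2*, a palate transcription factor, between 2.30 and 5.91 CPM. Markers of epithelium summed to 2.86 to 6.18 CPM, of endothelium to 0.727 to 2.70 CPM, of blood to 0.814 to 1.68 CPM, and of muscle to 0.104 to 0.579 CPM, and the defining genes *Tie1*, *Adgre1*, *Myod1*, and *Sox10* were at 0 in all 12 samples. The neural list summed to 20.0 to 31.5 CPM, nearly all of it *Tubb3*. Summed epithelial and neural markers were lower and endothelial and muscle markers higher in shSrsf3 than in scramble samples in both ligand conditions, and their part in the results was not tested. Replicates 1 and 2 of scramble -PDGF-AA and replicate 2 of scramble +PDGF-AA are the 3 libraries that had the lowest mapping rates in the methods of the study. In them, predicted genes and pseudogenes took 1.20% to 1.28% of counts, against 1.45% to 1.62% in the other 9 libraries. On the second principal component they lay at 3.85 to 27.4, against -20.4 to -23.0 for the other scramble libraries. The shSrsf3 libraries lay between -1.76 and 10.8 there, a range that includes the 3.85 of scramble +PDGF-AA replicate 2. Since the libraries of lowest mapping rate stand apart from the other scramble libraries and all carry the scramble shRNA, results that rest on them are given with and without them. Without them the scramble -PDGF-AA group has 1 library, whose spread is taken to equal that of the other groups.

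The members differed more in level than in their response. Per kilobase of canonical transcript, *Srsf5*, which acts in insulin-dependent splicing, was highest in scramble -PDGF-AA cells with 252 ± 20.6 CPM per kb (SD, n = 3), followed by *Srsf2* with 109 ± 2.98 and *Srsf3* with 71.0 ± 2.28 CPM per kb. *Srsf9* had 64.1 ± 4.53, *Srsf1* 56.6 ± 2.90, *Srsf6* 53.3 ± 3.71, and *Srsf11* 49.3 ± 2.86 CPM per kb. The lowest levels were those of *Srsf7* (34.2 ± 3.08 CPM per kb), *Srsf10* (32.7 ± 0.942 CPM per kb), and *Srsf4* (16.7 ± 0.325 CPM per kb). In this order, the replicates of *Srsf1* and *Srsf6*, of *Srsf6* and *Srsf11*, and of *Srsf7* and *Srsf10* overlapped, and those of all other neighbors were separate. *Srsf3*, at rank 3 in scramble cells of either condition, was at rank 5 in shSrsf3 -PDGF-AA cells with 56.1 ± 0.501 CPM per kb and at rank 4 in shSrsf3 +PDGF-AA cells with 56.9 ± 1.48 CPM per kb. The order depends on the length used: over the union of all exons, *Srsf9* moved from rank 4 to rank 9 and *Srsf1* from rank 5 to rank 3. *Srsf3* kept 1 rank in all 4 groups with the other lengths, rank 3 per kilobase of mean protein-coding transcript length and rank 5 over the union of exons, so that its lower rank in shSrsf3 cells holds for the canonical length alone.

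**Figure D2:**
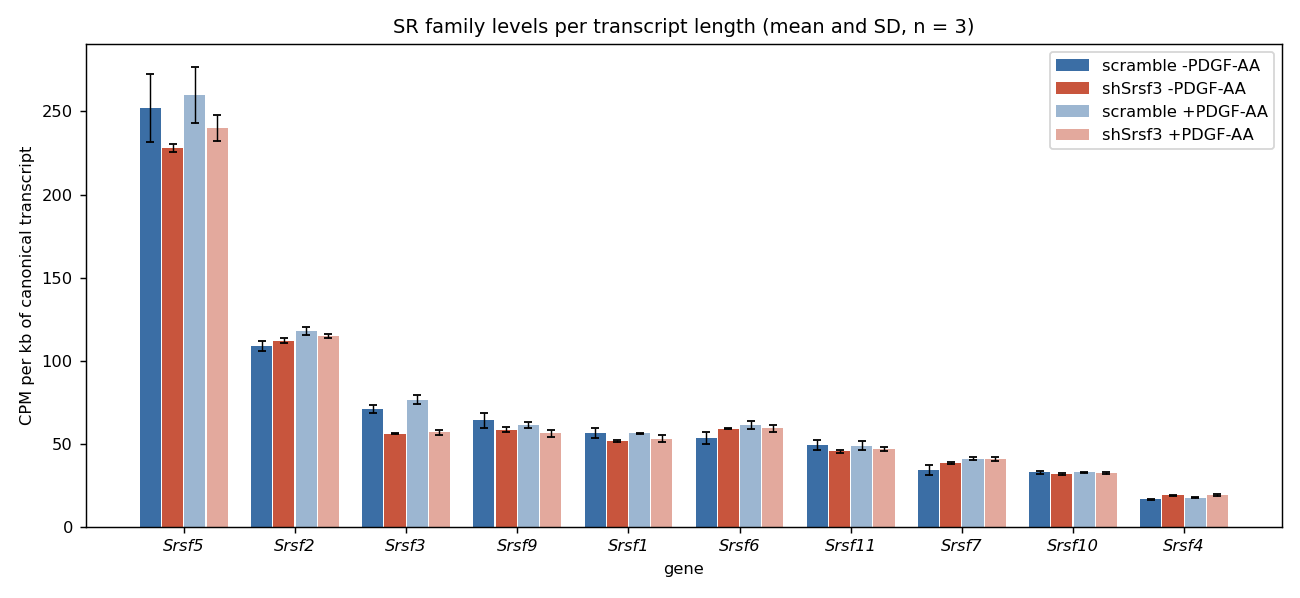
Level of each SR family gene in CPM per kilobase of its canonical transcript (vertical axis), ordered by level in scramble -PDGF-AA cells, with bars for the mean and error bars for the SD of 3 replicates in each of the 4 groups. *Srsf5* exceeds *Srsf2* 2.31-fold in scramble -PDGF-AA cells, and without ligand the bar of *Srsf3* is at 71.0 in scramble and 56.1 CPM per kb in shSrsf3 cells.

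*Srsf3*, a small shuttling SR protein that acts in splicing, RNA export, and 3’ end choice, was examined first as the targeted gene. Its CPM values without ligand were 207, 199, and 212 in the scramble samples and 162, 164, and 161 in the shSrsf3 samples. With ligand they were 221, 215, and 231 in scramble and 164, 161, and 169.5 in shSrsf3 samples. Every shSrsf3 sample was thus below every scramble sample, and the 6 shSrsf3 samples spanned a range of only 161 to 169.5 CPM. The log2 fold change was -0.34 (SE 0.0379, edgeR adjusted p = 7.95e-06) without ligand and -0.43 (SE 0.0380, edgeR adjusted p = 9.54e-07) with ligand, 0.790 and 0.742 times the scramble level. On a western blot, the study reported a larger fractional decrease of Srsf3 protein in the shSrsf3 line, and protein was not measured here. An exact two-sided permutation test on *Srsf3* alone gave p = 0.1 in both conditions, the smallest value that 3 samples against 3 allow. Without the 3 libraries of lowest mapping rate, the changes were -0.39 and -0.46 (adjusted p = 1.57e-05 and 3.50e-07, edgeR). *Srsf3* fell in all 12 fits that left out 1 library, by 0.31 to 0.36 without and 0.40 to 0.45 with ligand on the log2 scale.

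A transcribed copy of the gene, *Srsf3-ps*, complicates the *Srsf3* count. Of the 31-base sequences that make up its annotated transcripts, 12.4% were found in transcripts of another gene on the same strand, the largest share in the family, ahead of *Srsf5* (10.4%) and *Srsf10* (8.85%), whereas the share was 2.29% or less for the other members. *Srsf3-ps* had 10.3, 12.9, and 5.50 CPM in unstimulated and 6.99, 12.5, and 7.56 CPM in stimulated scramble samples, and the 3 values above 10 were those of the libraries of lowest mapping rate. In shSrsf3 samples it had 4.08 to 6.92 CPM. Its log2 fold change without ligand was -1.01 (adjusted p = 0.0110, edgeR), but -0.22 (adjusted p = 0.396) without those libraries, and with ligand it was -0.68 (adjusted p = 0.0823). The separate count of the copy amounted to at most 6.49% of the *Srsf3* count of the same library. When both rows were summed, an alternative chosen after the data were seen, the *Srsf3* changes were -0.37 and -0.44 (adjusted p = 1.71e-06 and 3.24e-07, edgeR). The 4 other copies, *Gm9761* of *Srsf3*, *Gm5446* and *Gm9134* of *Srsf10*, and *Gm12966* of *Srsf5*, had at most 8.06 counts in any library.

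Among the other members, *Srsf4* was the only one past the test in both knockdown comparisons. The gene encodes an SR protein with a long RS tail. Without ligand, its CPM values were 39.0, 38.8, and 40.2 in the scramble line and 43.9, 45.7, and 43.7 in the shSrsf3 line. With ligand they were 42.2, 40.6, and 40.5 in scramble and 43.9, 46.7, and 44.2 in shSrsf3 samples. All 6 shSrsf3 values lay above all 6 scramble values. *Srsf4* rose by a log2 fold change of 0.17 (SE 0.0384, adjusted p = 0.00224, edgeR) without and 0.13 (SE 0.0387, adjusted p = 0.0171, edgeR) with ligand, 12.8% and 9.26% above scramble. In 9 libraries the sizes were close to these, 0.14 and 0.12, with adjusted p = 0.0679 and 0.0513 (edgeR). With all 12 libraries and a term for low mapping rate, an alternative added after the data were seen, they were 0.15 and 0.12 with adjusted p = 0.0130 and 0.0259 (edgeR). With ligand, the call was also lost without scramble +PDGF-AA replicate 3 (0.12, adjusted p = 0.0591) or shSrsf3 +PDGF-AA replicate 2 (0.10, adjusted p = 0.0917), and with no low count filter (0.11, adjusted p = 0.130).

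*Srsf7*, the SR protein most closely related to Srsf3 and a zinc knuckle protein that also shuttles, had unstimulated CPM values of 79.1, 79.2, and 92.1 in the scramble line and 95.0, 93.1, and 93.2 in the shSrsf3 line. The 2 lowest values are those of the libraries of lowest mapping rate, whereas the remaining scramble library lay just below the lowest shSrsf3 sample. Over all libraries, *Srsf7* rose by 0.17 (SE 0.0535, adjusted p = 0.0211, edgeR), and in the 9 libraries the value was 0.02 (adjusted p = 0.763, edgeR). With ligand, the values were 102, 97.2, and 102 CPM in scramble and 100.1, 97.1, and 103 CPM in shSrsf3 samples, which overlap, with a log2 fold change of -0.01 (adjusted p = 0.942, edgeR).

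*Srsf6*, a general splicing enhancer-binding protein, followed the same pattern. Its unstimulated CPM values were 242, 245, and 274 in the scramble line and 282, 279, and 280.1 in the shSrsf3 line, and again the 2 lowest values came from the libraries of lowest mapping rate. *Srsf6* rose by 0.14 (SE 0.0480, adjusted p = 0.0245, edgeR) over all libraries, and the change was 0.03 (adjusted p = 0.642, edgeR) in the 9. With ligand, values of 295, 279.8, and 301 CPM in scramble and 292, 282, and 271 CPM in shSrsf3 samples overlapped (-0.05, adjusted p = 0.448, edgeR). Leaving out scramble -PDGF-AA replicate 1 or 2, or shSrsf3 -PDGF-AA replicate 1, ended the call without ligand of *Srsf6* (0.11, 0.12, and 0.14, adjusted p = 0.108, 0.0997, and 0.0683) and of *Srsf7* (0.13, 0.13, and 0.16, adjusted p = 0.0964, 0.101, and 0.0653). For *Srsf6*, the call was also lost without shSrsf3 -PDGF-AA replicate 2 or 3 (0.15 in each, adjusted p = 0.0527 and 0.0578). That of *Srsf7* was also lost with counts thinned to the smallest total (0.15, adjusted p = 0.0516, edgeR) and with only the -PDGF-AA samples (0.17, adjusted p = 0.0506, edgeR).

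*Srsf1* and *Srsf9* were lower in shSrsf3 -PDGF-AA cells. *Srsf1*, the founding member of the family, had 317, 316, and 289 CPM in scramble and 278, 283, and 281 CPM in shSrsf3 samples, which do not overlap. It fell by 0.13 on the log2 scale (SE 0.0405, adjusted p = 0.0171, edgeR), and the 9 libraries gave -0.05 (adjusted p = 0.433, edgeR). The call was lost without scramble -PDGF-AA replicate 1 or 2 or shSrsf3 -PDGF-AA replicate 1 (-0.11, -0.11, and -0.12, adjusted p = 0.0672, 0.0666, and 0.0592). *Srsf9*, a short member of the family, had 75.7, 80.0, and 69.5 CPM in scramble and 68.1, 70.3, and 67.0 CPM in shSrsf3 samples, which overlap. Its change of -0.13 (SE 0.0506, adjusted p = 0.0479, edgeR) was close to the threshold and passed in 2 of 12 fits that left out 1 library, with values between -0.17 and -0.08 and adjusted p between 0.00573 and 0.222, and in the 9 libraries it was -0.02 (adjusted p = 0.754). With ligand, both genes had lower values in every shSrsf3 than in every scramble sample (281, 280.2, and 300.3 against 306, 306, and 304 CPM for *Srsf1*, and 66.1, 63.4, and 68.1 against 70.9, 74.1, and 70.2 CPM for *Srsf9*), but neither passed the test (-0.09, adjusted p = 0.0986 and -0.12, adjusted p = 0.0680, edgeR). The 9 libraries gave -0.09 for *Srsf1* and -0.10 for *Srsf9*. Without scramble -PDGF-AA replicate 3 or shSrsf3 +PDGF-AA replicate 3, *Srsf1* passed (-0.09 and -0.12, adjusted p = 0.0381 and 0.0371, edgeR). *Srsf9* passed without scramble -PDGF-AA replicate 2 or 3 (-0.12 in each, adjusted p = 0.0449 and 0.0247, edgeR). It also passed with no low count filter (-0.14, adjusted p = 0.0463) and with only the +PDGF-AA samples (-0.12, adjusted p = 0.0437, edgeR).

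The remaining 4 members did not pass in edgeR in either knockdown comparison, whereas DESeq2 called *Srsf5* without ligand (-0.14, adjusted p = 0.0382). *Srsf5* had unstimulated values of 494, 502, and 431 CPM in the scramble line and of 432, 433, and 425 CPM in the shSrsf3 line (-0.15, adjusted p = 0.0509, edgeR), and -0.01 (adjusted p = 0.921) in the 9 libraries. Leaving out scramble -PDGF-AA replicate 3 brought it to -0.20 (adjusted p = 0.00269), and it also passed without scramble +PDGF-AA replicate 1 or 2 (-0.15 in each, adjusted p = 0.0395 and 0.0373), without a low count filter (-0.15, adjusted p = 0.00386), and with counts thinned to the smallest total (-0.15, adjusted p = 0.0372). With ligand, *Srsf5* was at -0.11 (adjusted p = 0.126, edgeR), and it passed without a low count filter (-0.13, adjusted p = 0.0180) and without scramble -PDGF-AA replicate 3 or scramble +PDGF-AA replicate 1 (-0.11 and -0.16, adjusted p = 0.0389 and 0.0478). *Srsf11*, a distant relative of the classical SR proteins, had unstimulated values of 154, 164, and 146 CPM in the scramble line and of 145, 140, and 145 CPM in the shSrsf3 line, non-overlapping values with a log2 fold change of -0.12 (adjusted p = 0.0661, edgeR). It was -0.04 (adjusted p = 0.602) in the 9 libraries, and it passed without scramble -PDGF-AA replicate 3 (-0.14, adjusted p = 0.0205). *Srsf2*, a largely nuclear member that also acts in transcription elongation, ranged from 264 to 278 CPM in scramble and 274 to 280.5 CPM in shSrsf3 samples without ligand (0.03, adjusted p = 0.448, edgeR). *Srsf10*, which can repress splicing when dephosphorylated, was the steadiest member, with all 12 samples between 95.4 and 102 CPM (-0.04 and -0.02 in the knockdown comparisons, adjusted p = 0.352 and 0.627, edgeR).

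**Figure D3:**
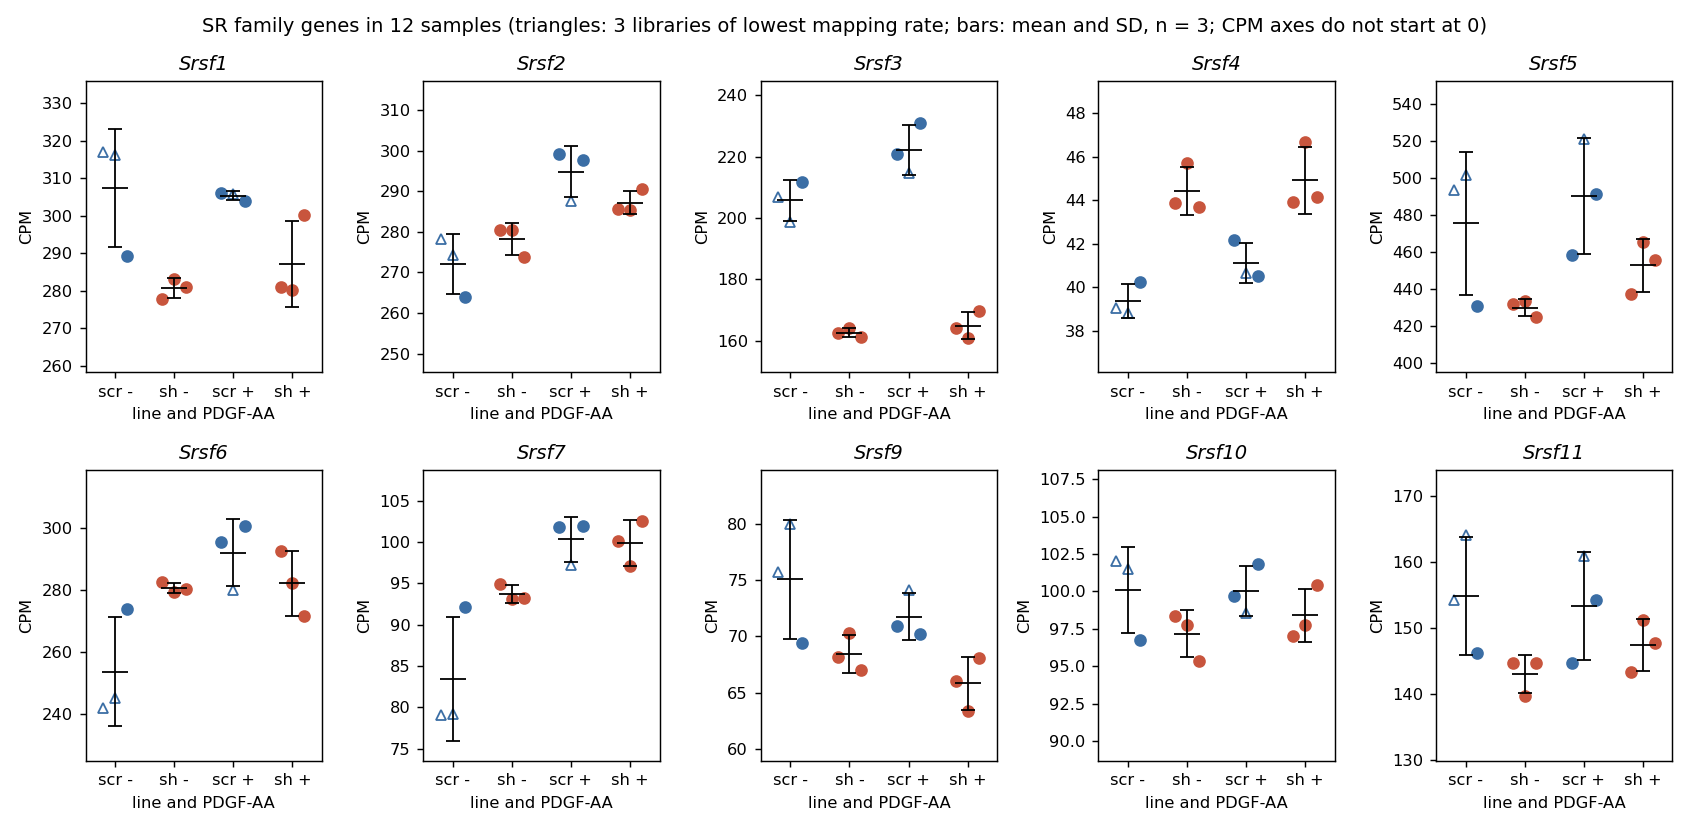
CPM (vertical axes, which do not start at 0) of each SR family gene in each of the 12 samples, by line (scr, scramble in blue; sh, shSrsf3 in red) and ligand (- or +PDGF-AA), with black bars for the mean and SD of 3 replicates. Open triangles are the 3 libraries of lowest mapping rate, which lie apart from the other scramble libraries for *Srsf6* and *Srsf7* without ligand, and the 6 shSrsf3 samples of *Srsf3* all lie at or below 169.5 CPM.

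In the absence of ligand, 6 of 10 members passed the test, 3 higher (*Srsf4*, *Srsf6*, *Srsf7*) and 3 lower (*Srsf1*, *Srsf3*, *Srsf9*). This is to be read against 45.9% of all genes tested in the same comparison, with 22.2% higher and 23.7% lower. With ligand, 2 of 10 members passed, *Srsf3* lower and *Srsf4* higher, against 41.0% of all genes (20.3% higher and 20.7% lower). Samples of the lines did not overlap for 6 and 4 members, against 53.3% and 52.6% of all genes. No member changed 2-fold, as 5.75% and 5.42% of all genes did while passing the test. The median log2 fold change of the members was -0.08 without and -0.05 with ligand, beside -0.02 and -0.01 over all genes tested, and their median absolute change of 0.138 and 0.0726 lay below the 0.203 and 0.188 of all genes. In the 9 libraries, *Srsf3* was the 1 member that passed in each comparison, while 34.3% and 40.4% of 16133 genes tested did. The knockdown comparison without ligand and the ligand comparison in scramble cells share the scramble -PDGF-AA samples.

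**Figure D4:**
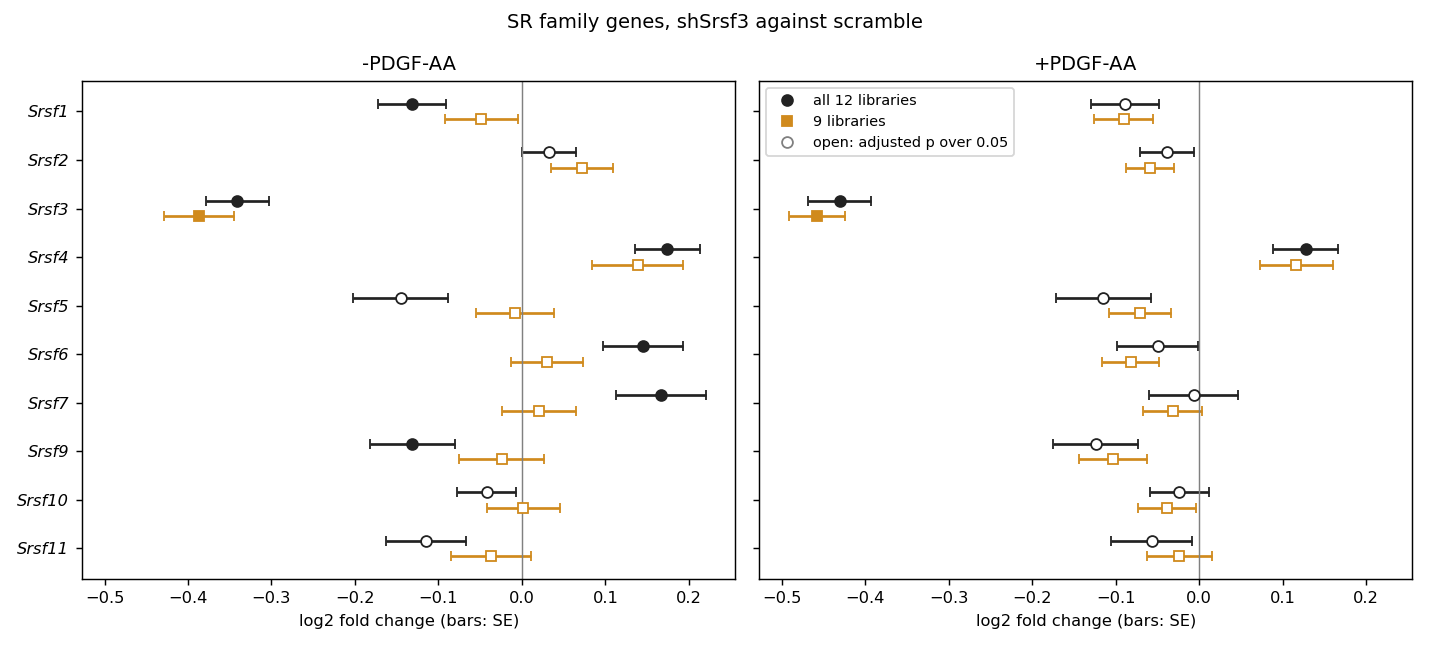
Log2 fold change (horizontal axis; error bars, SE) of each SR family gene between shSrsf3 and scramble cells without (left) and with (right) PDGF-AA, over all 12 libraries (black circles) and without the 3 libraries of lowest mapping rate (orange squares), with filled symbols for an adjusted p of 0.05 or less. *Srsf3* is filled in all 4 estimates, whereas *Srsf6* and *Srsf7* move from 0.14 and 0.17 to 0.03 and 0.02 without ligand when the 3 libraries are left out.

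The libraries of lowest mapping rate were also compared through the added term with the other scramble libraries of the same ligand condition. The shSrsf3 libraries entered only through the shared estimate of spread. In this model of 12 libraries, *Srsf5* was 0.17 higher in the libraries of lowest mapping rate on the log2 scale (SE 0.0355, adjusted p = 0.00632, edgeR). *Srsf6* was 0.13 lower (log2 difference -0.13, SE 0.0328, adjusted p = 0.0198), and *Srsf7* 0.14 lower (log2 difference -0.14, SE 0.0382, adjusted p = 0.0263). These 3 members were past the test, as were 11.6% of all 15037 genes. *Srsf3* and *Srsf4* differed by -0.07 and -0.04 (adjusted p = 0.196 and 0.618, edgeR). With this term, 2 members, *Srsf3* and *Srsf4*, passed in the knockdown comparison without ligand, beside 40.8% of all genes, and *Srsf3*, *Srsf4*, and *Srsf6* (-0.09, adjusted p = 0.0343, edgeR) with ligand, beside 44.2% of all genes.

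Summed over the 10 members, reads of the family amounted to 1967 ± 46.1 in scramble -PDGF-AA, 1878 ± 12.2 in shSrsf3 -PDGF-AA, 2071 ± 28.3 in scramble +PDGF-AA, and 1930 ± 19.6 in shSrsf3 +PDGF-AA cultures (CPM, SD, n = 3). The share of *Srsf3* in this sum was 10.5% ± 0.565 and 10.7% ± 0.364 in scramble and 8.65% ± 0.0395 and 8.54% ± 0.182 in shSrsf3 samples, without and with ligand. The other 9 members together had 1761 ± 51.9 and 1849 ± 26.6 CPM in scramble and 1716 ± 10.9 and 1765 ± 17.2 CPM in shSrsf3 samples. Single samples overlapped between the lines without ligand (1703 to 1801 against 1703 to 1722 CPM), and with ligand they were lower in shSrsf3 samples without overlap (1818 to 1866 against 1747 to 1780 CPM). These sums were not tested.

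Whether PDGF-AA itself alters SR transcripts was examined next. In scramble cells, 2 of 10 members passed the test, both higher, against 4.04% of all genes (2.00% higher and 2.04% lower). *Srsf7* rose by 0.26 (SE 0.0535, adjusted p = 0.0131, edgeR), a 20.1% higher level, and *Srsf6* by 0.20 (SE 0.0480, adjusted p = 0.0314, edgeR). For both genes, the scramble values printed above do not overlap between conditions, and the unstimulated values of 79.1 and 79.2 CPM (*Srsf7*) and 242 and 245 CPM (*Srsf6*) again belong to libraries of lowest mapping rate. In the 9 libraries the changes were 0.14 for *Srsf7* (adjusted p = 0.132, edgeR) and 0.12 for *Srsf6* (adjusted p = 0.210, edgeR), and with the term for low mapping rate 0.22 (adjusted p = 0.00279) and 0.16 (adjusted p = 0.00858). Both calls were lost when replicate 1 or 2 of scramble -PDGF-AA or replicate 1 or 3 of scramble +PDGF-AA was left out, with *Srsf7* at 0.23, 0.23, 0.25, and 0.25 (adjusted p = 0.0599, 0.0735, 0.0569, and 0.0694) and *Srsf6* at 0.17, 0.18, 0.19, and 0.18 (adjusted p = 0.124, 0.139, 0.112, and 0.149). For *Srsf6*, leaving out shSrsf3 -PDGF-AA replicate 1 or 3, which enter through the shared estimate of spread, also did so (0.20 and 0.21, adjusted p = 0.0532 and 0.0502).

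*Srsf2* had 278, 274, and 264 CPM in unstimulated and 299, 288, and 298 CPM in stimulated scramble samples. The values do not overlap, but the change of 0.12 missed the threshold (adjusted p = 0.0684, edgeR). *Srsf2* did pass in the 9 libraries (0.18, adjusted p = 0.0309, edgeR), where it was the 1 member to do so against 3.16% of all genes, and without scramble +PDGF-AA replicate 2 (0.13, adjusted p = 0.0480). It also passed in DESeq2 (0.12, adjusted p = 0.00441), with the size factors of DESeq2 in edgeR (0.12, adjusted p = 0.0488), and with the term for low mapping rate (0.12, adjusted p = 0.0404). *Srsf3* itself was 0.11 higher in stimulated scramble cells (adjusted p = 0.133, edgeR), with 0.12 in DESeq2 (adjusted p = 0.0495) and 0.14 (adjusted p = 0.0368, edgeR) when scramble -PDGF-AA replicate 3 was left out. Stimulated and unstimulated scramble samples did not overlap for 5 members (*Srsf2*, *Srsf3*, *Srsf4*, *Srsf6*, *Srsf7*), against 18.8% of all genes, and no member passed with a 2-fold change, as 0.200% of all genes did. The median change of the members was 0.05, beside -0.01 over all genes.

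In shSrsf3 cells, none of the 10 members passed the test upon ligand treatment in edgeR, none had an unadjusted p under 0.05, and none passed in DESeq2 or limma-voom, whereas 0.565% of all genes did in edgeR, and 0.0399% with a 2-fold change. *Srsf7* had 95.0, 93.1, and 93.2 CPM without and 100.1, 97.1, and 103 CPM with ligand, values that do not overlap (0.09, SE 0.0537, adjusted p = 0.654, edgeR). *Srsf2* (0.05, adjusted p = 0.736) and *Srsf5* (0.08, adjusted p = 0.755) did not overlap either, while 2708 of all 15037 genes were without overlap. *Srsf6* (0.01, adjusted p = 0.989), *Srsf4* (0.02, adjusted p = 0.959), and *Srsf10* (0.02, adjusted p = 0.942) had the smallest values, and that of *Srsf3* was 0.02 (adjusted p = 0.934). Whether the ligand acts differently in the lines was tested with the interaction, the ligand effect in shSrsf3 minus that in scramble cells. No member passed this test in edgeR, DESeq2, or limma-voom, and 0.0133% of all genes did in edgeR. The values were -0.19 for *Srsf6* (SE 0.0679, adjusted p = 0.835, edgeR) and -0.17 for *Srsf7* (SE 0.0757, adjusted p = 0.874, edgeR), the 2 members with an unadjusted p under 0.05, and -0.11 and -0.05 for these genes in the 9 libraries. The response of *Srsf6* and *Srsf7* in scramble cells was thus not shown to differ from that in shSrsf3 cells.

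**Figure D5:**
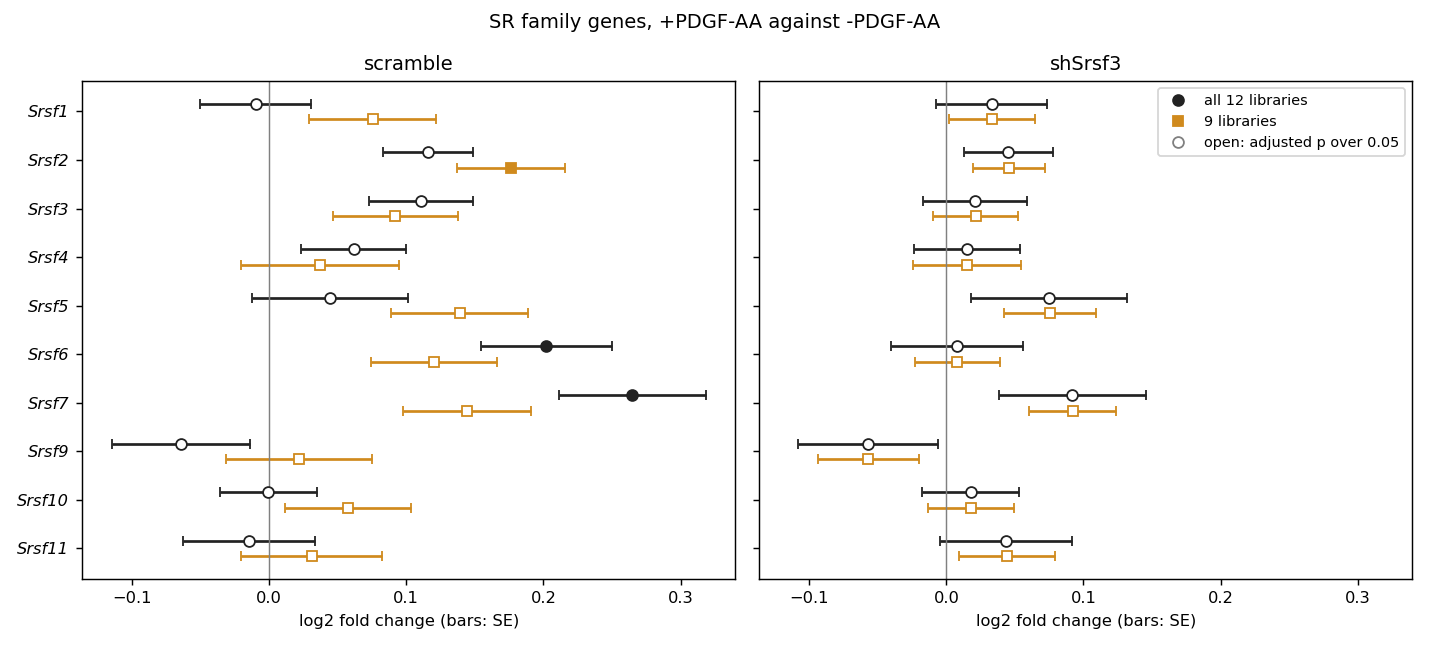
Log2 fold change (horizontal axis; error bars, SE) of each SR family gene between +PDGF-AA and -PDGF-AA samples in scramble (left) and shSrsf3 (right) cells, over all 12 libraries (black circles) and without the 3 libraries of lowest mapping rate (orange squares), with filled symbols for an adjusted p of 0.05 or less. In scramble cells *Srsf6* and *Srsf7* are filled with 12 libraries and *Srsf2* with 9, and no symbol is filled in shSrsf3 cells.

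The genes whose pattern over the 12 samples was closest to that of a member were found by the root mean squared difference of centered log2 CPM among 12261 genes with a mean count of at least 50. For *Srsf3* these were *Exoc2*, an exocyst subunit (difference 0.0324), *Eya4*, a transcriptional coactivator (0.0439), and *Hs6st2*, a heparan sulfate sulfotransferase (0.0444). For *Srsf4* they were *Sh3gl1* (0.0295), *St7* (0.0318), and *Wdr61* (0.0335), whose knockdown changes of 0.19 to 0.21 without and 0.14 with ligand were near those of *Srsf4*. These are descriptions of likeness in 12 samples that share libraries.

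Genes that act with SR proteins were examined as lists. Of 17 other SR-like and SR-related genes, all tested, *Tra2b* (-0.11, adjusted p = 0.0418, edgeR), a splicing activator with RS tails on both ends, and *Luc7l2* (-0.15, adjusted p = 0.0284, edgeR), a U1 snRNP-associated factor, fell without ligand, against 23.7% of all genes, and neither passed in the 9 libraries (-0.03 and -0.10, adjusted p = 0.688 and 0.204). With ligand, 0 passed in edgeR (3 at an unadjusted p under 0.05), 2 in DESeq2, and in the 9 libraries *Tra2b* did (-0.10, adjusted p = 0.0327). Upon stimulation, 0 passed in edgeR in scramble (4 at an unadjusted p under 0.05) and in shSrsf3 cells (0 at an unadjusted p under 0.05), against 1 and 0 in DESeq2. The list’s medians were -0.04 and -0.02 in the knockdown comparisons, and 0.02 and 0.04 for the ligand in scramble and shSrsf3 cells. *Srsf12*, which had the largest ligand value of this list in scramble cells (0.26, adjusted p = 0.824), is barely expressed, with group means of 0.126 to 0.231 CPM.

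Of 18 kinases, phosphatases, and transport factors that act on SR proteins, 17 were tested. Without ligand 4 were higher and 5 lower (3 and 2 in the 9 libraries), against 22.2% and 23.7% of all genes, and with ligand 3 were higher and 3 lower (3 and 4 in the 9 libraries), against 20.3% and 20.7% of all genes. The list’s medians were 0.05 and -0.00155. *Akt2*, a serine/threonine kinase downstream of PI3K, rose from 69.6 ± 2.06 to 92.6 ± 1.4 CPM without and from 70.4 ± 1.79 to 91.0 ± 1.78 CPM with ligand (SD, n = 3; 0.41 and 0.37, adjusted p = 1.01e-06 and 3.15e-06, edgeR). *Srpk1*, the main cytoplasmic SR kinase, rose from 101 ± 2.66 to 118 ± 0.610 CPM and from 104 ± 2.14 to 119.9 ± 4.13 CPM (0.22 and 0.21, adjusted p = 0.000224 and 0.000467, edgeR). Both kinases also passed in the 9 libraries, with *Akt2* at 0.42 and 0.36 and *Srpk1* at 0.23 and 0.19. *Akt1* was higher without ligand (0.08, adjusted p = 0.0488, edgeR), with adjusted p = 0.132 in the 9 libraries. *Clk3*, a nuclear SR kinase, fell by 0.27 and 0.20 on the log2 scale (adjusted p = 0.00427 and 0.0274, edgeR), with 75.0 ± 6.36 against 62.3 ± 0.394 CPM without ligand, and by less, -0.12 (adjusted p = 0.121) and -0.14 (adjusted p = 0.0277), in the 9 libraries. Lower as well were *Clk1* (-0.16, adjusted p = 0.00246) and *Clk2* (-0.15, adjusted p = 0.0170) without ligand, the protein phosphatase gene *Ppp1ca* (-0.12 and -0.15, adjusted p = 0.00575 and 0.00186), and the mRNA export gene *Nxf1* (-0.12 and -0.15, adjusted p = 0.0226 and 0.00814, edgeR). In the 9 libraries, *Clk1* (-0.21, adjusted p = 0.00384) kept its call without ligand, and *Clk2* (-0.12, adjusted p = 0.180), *Ppp1ca* (-0.10, adjusted p = 0.0712), and *Nxf1* (-0.11, adjusted p = 0.0973) lost it, whereas *Ppp1ca* and *Nxf1* passed with ligand (adjusted p = 0.00182 and 0.0102). No gene of this list passed in edgeR upon ligand treatment of scramble (3 at an unadjusted p under 0.05, 1 called by DESeq2) or shSrsf3 cells (0 and 0), where the medians were 0.04 and -0.01. The largest value was that of *Clk2* in scramble cells (-0.16, adjusted p = 0.0876, edgeR).

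Of 10 NMD factors, 2 were higher and 1 lower without ligand and 1 higher and 1 lower with ligand, against 45.9% and 41.0% of all genes in both directions, with medians of -0.06 and -0.00968. *Smg8*, a subunit of the Smg1 kinase complex, fell by 0.19 and 0.20 on the log2 scale (adjusted p = 0.00700 and 0.00597, edgeR). *Smg5*, which acts in the decay step, rose without ligand (0.22, adjusted p = 0.000476, edgeR). *Smg8* also passed in the 9 libraries, where 2 members of the list were higher and 1 lower in each comparison. Upon ligand treatment of scramble cells, 1 member of the list was higher, against 2.00% of all genes, and *Upf3b*, which links NMD to the exon junction complex, had the largest value (-0.21, adjusted p = 0.197). The list’s medians for the ligand were 0.04 in scramble and 0.02 in shSrsf3 cells. In shSrsf3 cells, 0 members of the list passed in edgeR (1 at an unadjusted p under 0.05) and 1 in DESeq2, and 1 did in the 9 libraries, beside 0.565% of all genes in edgeR with 12 libraries.

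The ligand response itself was present in both lines. Of 8 genes induced by growth factors, 7 were higher upon treatment of scramble cells, against 2.00% of all genes. In shSrsf3 cells, 5 were higher and 1 lower, against 0.565% of all genes in both directions together. Medians were 0.74 in scramble and 0.65 in shSrsf3 cells. *Egr3*, an immediate early transcription factor, rose from 12.5 ± 1.44 to 66.2 ± 8.95 CPM in scramble (2.41, adjusted p = 3.08e-07, edgeR) and from 13.3 ± 2.34 to 36.6 ± 2.71 CPM in shSrsf3 cells (1.48, adjusted p = 0.000106, edgeR). Its interaction of -0.94 did not pass the test (adjusted p = 0.174, edgeR). For the interaction, 0 genes of this list passed in edgeR (5 at an unadjusted p under 0.05) and 1 in DESeq2. The gene that fell in shSrsf3 cells was *Fos* (-0.58, adjusted p = 0.0128, edgeR). Between the lines, 6 were higher in shSrsf3 cells without ligand, against 22.2% of all genes. With ligand, 4 were higher and 1 lower, against 20.3% and 20.7% of all genes. The medians were 0.43 and 0.22, and the lower gene was *Egr3* (-0.86, adjusted p = 5.41e-05, edgeR, and -0.74 in the 9 libraries). Those that passed in both conditions were led by *Dusp6*, an ERK phosphatase (0.99 and 0.78, adjusted p = 8.84e-10 and 7.44e-09, edgeR), *Fosb* (0.84 and 0.96, adjusted p = 0.000313 and 4.90e-05), *Egr1* (0.87 and 0.50, adjusted p = 2.82e-05 and 0.00192), and *Ier2*.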

How the data were processed

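The authors trimmed reads, quantified transcripts with Salmon (v1.4.0, per the labels) against GENCODE M26 on GRCm39, summed them per gene symbol with tximport, and deposited expected counts, estimated read pairs per gene that are not scaled to depth. tximport’s version and count scaling are not given in the sources used here. Samples were grouped by their labels. Here, the expected counts were rounded (16.3% were not whole), filtered with filterByExpr (minimum count 10), normalized by TMM, and tested with edgeR 4.0.16 (quasi-likelihood) in 1 model of 4 group means over 12 samples. Genes were called at p of 0.05 or less after Benjamini-Hochberg adjustment over all tested genes, with a minimum of 2-fold given beside it. CPM uses TMM-scaled library sizes. Transcript types, lengths, 31-base sequences, and cassette exons came from GENCODE M39 on GRCm39, by symbol, and all 10 members matched. A copy was a -ps row or a predicted gene sharing over 50% of its 31-base sequences with a member. Alternatives used limma 3.58.1, DESeq2 1.42.0, other scalings, filters, and sample sets. R 4.3.3, Python 3.11, pandas 2.3.3, numpy 2.4.6, and matplotlib 3.10.9 were used. Of the tests, only the edgeR test of the knockdown comparison without ligand was tried on simulated data. All members are named. Of each list, the genes called in both knockdown comparisons (at most 4, by mean absolute change) and the gene most changed by the ligand are named, other than some not reported here, and further list genes were named after their values were seen. The members and lists were chosen with earlier results of these data known.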

Additional observations from a re-analysis of the deposited data

How the results depend on the processing

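*Srsf3* fell in both knockdown comparisons under every alternative run (-0.39 to -0.32 without and -0.46 to -0.41 with ligand, other than fits without 1 library). No value of a member that passed the test, in the main analysis or under an alternative, changed its direction. Of 1142 values of single members under alternatives, 1062 kept their side of the threshold, 55 lost and 25 gained a call. Numbers of members called were, with a 2-fold minimum, 0 in the knockdown comparisons and 0 for the ligand in scramble cells. Without the 3 libraries of lowest mapping rate they were 1, 1, and 1, and with a term for these libraries, added after the data were seen, 2 in the knockdown comparison without ligand. For the ligand in scramble cells, they were 1 with total counts only, 4 with DESeq2, and 0 with the samples of that comparison only. Without 1 library each, 2 to 8 (knockdown without ligand), 1 to 5 (with ligand), and 0 to 3 members (ligand in scramble) were called, 0 for the ligand in shSrsf3 cells, and 0 for the interaction. The cause was not tested.

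Over all genes, the 2-fold minimum left 864, 815, 30, 6, and 1 calls in the comparisons without ligand, with ligand, of ligand in scramble, of ligand in shSrsf3, and of the interaction. Without a low count filter, the last 3 were 1289, 374, and 218. DESeq2 gave 213 for the ligand in shSrsf3 cells and 26 for the interaction, the 9 libraries 231 and 16, and the term for low mapping rate 209 and 8. With the samples of the comparison only, 247 and 201 genes were called for the ligand in scramble and shSrsf3 cells. For the interaction, the data thinned to the smallest total gave 1. Without 1 library each, 5838 to 7202, 5245 to 6678, 243 to 1472, 23 to 168, and 1 to 6 genes were called. Other scalings shifted the median of all genes by at most 0.02 on the log2 scale.

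Samples were not treated as pairs by replicate number, since the labels do not say how the replicates were set up. Deviations of samples with the same number correlated between -0.142 and 0.201 in 12 pairs, above 0.1 in 2. With a replicate block, 1 gene was called for the interaction, and 6982, 6223, 625, and 93 genes in the other comparisons, with 6, 2, 2, and 0 members. Among members, *Srsf5* gained (-0.14, adjusted p = 0.0369, edgeR) and *Srsf9* lost its call without ligand (-0.13, adjusted p = 0.0501).

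Precision is limited by the counts (1372 or more per member), the 3 replicates, and the 1 line per shRNA. The counts cannot show which transcripts of a gene changed.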
